A study of Mus musculus with 4 samples.

Results

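Protein kinase A (PKA) subunits and the A-kinase anchoring proteins (AKAPs) that hold the kinase in place were followed in testis RNA of Tslc1-/- and Tslc1+/+ mice. The members were every probe set whose platform annotation names exactly 1 gene, where that gene is Prkar1a, Prkar1b, Prkar2a, Prkaca, Prkacb, Akap1, Akap4, Akap8, Akap9 or Akap12. This gave 17 probe sets for 10 genes, out of 12488 probe sets that stand for 8251 singly named genes. RNA came from Tslc1-/- testis (2 arrays) and Tslc1+/+ testis (2 arrays) of C57BL/6J males aged 16 weeks. Tslc1, now named Cadm1, encodes an immunoglobulin-type adhesion molecule. The labels give neither the allele's structure nor whether arrays of 1 genotype stand for different animals. A p-value here therefore covers the spread between arrays, which may be technical only.

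PKA is the main receptor of cyclic AMP. A dimer of regulatory subunits, of type I (Prkar1a, Prkar1b) or type II (Prkar2a, Prkar2b), keeps the catalytic subunits (Prkaca, Prkacb) inactive until cAMP binds. Anchoring proteins bind the regulatory dimer and place the kinase at mitochondria, membranes, centrosomes, the nucleus or, in sperm, the fibrous sheath of the tail. In male germ cells, CREB-family factors act on transcription in spermatids, and PKA acts in sperm on motility and capacitation.

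Signals are the authors' MAS5 probe set intensities on a linear scale, and changes are on a log2(signal + 50) scale, as Tslc1-/- minus Tslc1+/+. Of the 17 probe sets, 15 had a mean signal of at least 200 and were tested. The genes were chosen from the PKA family and its anchors with their signals and genotype changes on these same arrays known. Their changes and adjusted p-values from the fit over all 7975 tested probe sets are therefore a description of each gene and no evidence about the set. Levels of different probe sets cannot be set against each other on this array, so each probe set is compared with itself between genotypes.

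The targeted gene was lower in the Tslc1-/- libraries. One Cadm1 probe set read 443.5 and 444.9 in Tslc1-/- testis, against 3960 and 3925.2 in Tslc1+/+ testis, a log2 change of -3.01 (adjusted p = 2.31e-05, limma). A second Cadm1 probe set had a log2 change of -2.36 (adjusted p = 1.83e-04, limma). Both carry a suffix that marks probes shared with other transcripts. Which part of Cadm1 was deleted is not given in the labels. Across probe sets, the log2 signals of the Tslc1-/- arrays correlated with r = 0.941 and those of the Tslc1+/+ arrays with r = 0.938. Between genotypes r was 0.930 to 0.941, about as high as within them.

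Of the 15 tested probe sets, 5 were lower in Tslc1-/- testis at an adjusted p under 0.05 and none was higher (limma, Benjamini-Hochberg over all tested probe sets). Over all tested probe sets 1.08% were called, 0.840% lower and 0.238% higher. Both Tslc1-/- arrays lay below both Tslc1+/+ arrays on 7 of the 15, against 18.5% of all tested probe sets, and above them on 3, against 21.5%. The 5 belong to Prkar2a, Akap1 (2 probe sets), Akap4 and Akap12. They were the 5 brightest of the tested PKA and AKAP probe sets, each with a mean signal of at least 5000. Among all 714 tested probe sets that bright, 6.58% were called lower and 0.700% higher. None of the 10 dimmer ones passed, and their standard errors on the log2 scale were 0.14 to 0.82, against 0.08 to 0.13 for the 5. The median log2 change was -0.15 over the 15 probe sets and 0.02 over all tested probe sets.

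**Figure D1:**
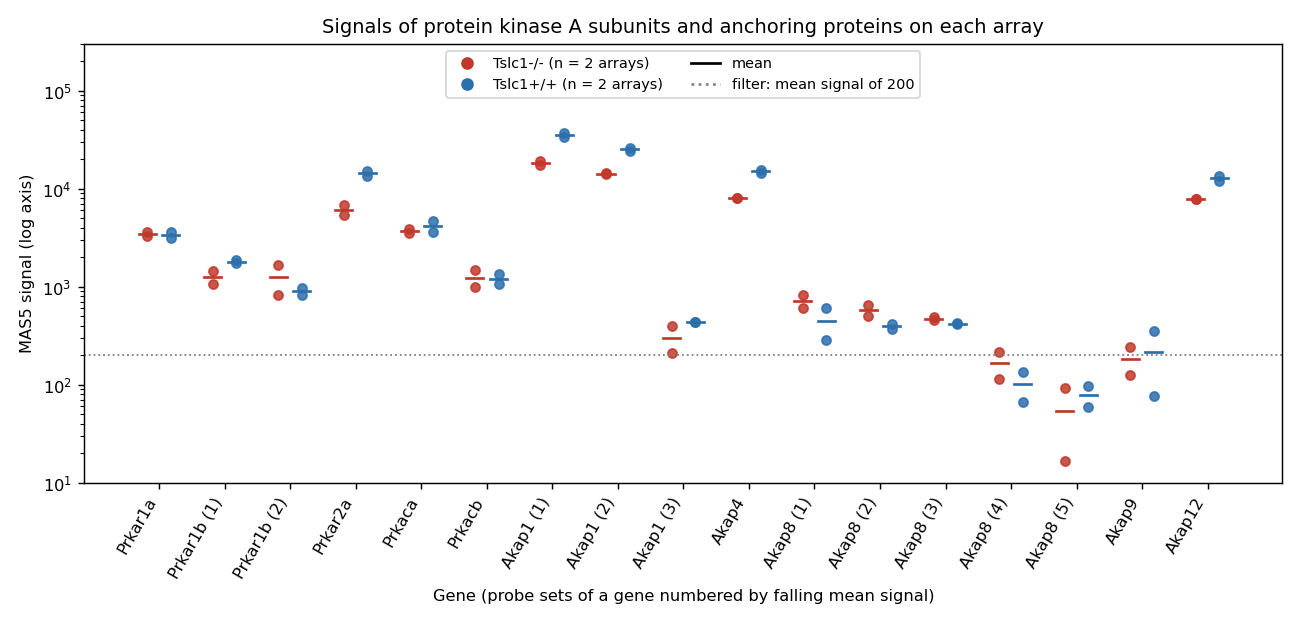
MAS5 signal (log axis) of the 17 PKA and AKAP probe sets on each array; points are single arrays, 2 per genotype, short bars are genotype means, and the dotted line is the mean signal of 200 required for testing. Points of Prkar2a, Akap4, Akap12 and the first and second Akap1 probe sets lie lower in Tslc1-/- than in Tslc1+/+ with no overlap, while those of Prkar1a, Prkaca and Prkacb overlap.

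The stretches upstream of the start sites of Prkar2a, Akap1 and Akap4 are shown because these genes fell together. They come from RefSeq (GRCm38.p6), 250 bases up to each start site, written 5′ to 3′ in the gene's own direction. Windows were matched for 9 of the 10 genes, 24 windows in all, some of them overlapping, and Akap12 was not matched. Capitals mark matches to TGANGTCA or its reverse complement TGACNTCA, a form of the cAMP response element with 1 free base. This search was chosen after the sequences were seen. The Akap1 windows shown belong to separate start sites. A further Akap1 window, at chr11:88851504-88851753, overlaps one of them, held no match and is not shown. Akap4 has another window, at chrX:7067960-7068209, which held no match and is not shown. The last line is a stretch of 30 bases from Prkar1a, which did not fall, with the full element in capitals.
Prkar2a, chr9:108691893-108692142, plus strand: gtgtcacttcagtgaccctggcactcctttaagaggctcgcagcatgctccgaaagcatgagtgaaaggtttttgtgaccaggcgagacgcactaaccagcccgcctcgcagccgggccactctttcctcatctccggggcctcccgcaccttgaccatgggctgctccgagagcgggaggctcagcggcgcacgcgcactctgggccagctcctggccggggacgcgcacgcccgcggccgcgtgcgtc
Akap1, chr11:88864587-88864836, minus strand: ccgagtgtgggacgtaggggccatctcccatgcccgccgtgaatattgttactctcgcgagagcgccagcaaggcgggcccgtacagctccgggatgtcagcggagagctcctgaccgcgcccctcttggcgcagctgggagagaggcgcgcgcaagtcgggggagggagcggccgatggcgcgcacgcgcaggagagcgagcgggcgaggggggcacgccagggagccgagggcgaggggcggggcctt
Akap1, chr11:88851513-88851762, minus strand: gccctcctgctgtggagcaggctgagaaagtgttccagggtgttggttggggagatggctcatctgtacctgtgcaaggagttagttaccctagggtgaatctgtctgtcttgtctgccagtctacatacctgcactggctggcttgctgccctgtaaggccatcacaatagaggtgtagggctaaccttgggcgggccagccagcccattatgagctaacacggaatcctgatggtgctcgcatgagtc
Akap4, chrX:7067265-7067514, plus strand: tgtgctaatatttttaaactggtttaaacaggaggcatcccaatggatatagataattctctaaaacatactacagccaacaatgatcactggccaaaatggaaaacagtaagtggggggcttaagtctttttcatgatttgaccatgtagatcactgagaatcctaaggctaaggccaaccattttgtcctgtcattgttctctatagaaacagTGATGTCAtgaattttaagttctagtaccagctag
Prkar1a, chr11:109650889.0-109650918.0, plus strand: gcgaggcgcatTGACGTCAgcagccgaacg

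The full cAMP response element TGACGTCA, which reads the same on both strands, was in 1 of the 24 windows, that of Prkar1a, where it starts 49 bases before the end of the window. It was in 1.55% of 32851 such windows over all genes. The form with a free base, which includes the full element, was in 2 of the 24 windows and in 7.49% of all. The second match was TGATGTCA in Akap4, 35 bases before the end of its window. The shorter half-site, TGACG or CGTCA, which overlaps the full element, was in 6 of the 24 windows, of Prkaca, Prkacb, Prkar1a and Prkar1b, and in 17.8% of all. No window of Prkar2a, Akap1 or Akap4 held it, but 1 CGTCA of Prkar2a runs across the end of its window and came into view when the 50 bases after the start site were added. These are matches of letters and were not read as binding sites.

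Among the regulatory subunits, Prkar2a was the one that fell. Prkar2a encodes the type II alpha subunit, which docks to most anchoring proteins. Its probe set (97096_at) read 6799.7 and 5349 in Tslc1-/- testis, against 13335 and 15255.1 in Tslc1+/+ testis. Both Tslc1-/- arrays lay far below both Tslc1+/+ arrays. Mean signal was 6074 ± 1026 in Tslc1-/- testis against 14295 ± 1358 in Tslc1+/+ testis (SD, n = 2 arrays each), a 2.35-fold fall with a log2 change of -1.23 ± 0.13 (SE; adjusted p = 8.76e-04, limma). Among the 714 bright probe sets it had the 3rd largest fall.

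The type I regulatory subunits did not pass. Prkar1a encodes the type I alpha subunit, made in most tissues. It read 3302.3 and 3589.3 in Tslc1-/- testis, against 3159.8 and 3619.4 in Tslc1+/+ testis. The Tslc1-/- values lay inside the Tslc1+/+ range, with a log2 change of 0.03 and a 95% confidence interval from -0.28 to 0.33 (adjusted p = 0.970, limma). A fall of the size seen for Prkar2a is outside that interval.

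Prkar1b, the type I beta subunit, best known from the nervous system, was read by probe sets that moved apart. The brighter one read 1062.6 and 1448.4 in Tslc1-/- testis, against 1723.9 and 1875.2 in Tslc1+/+ testis. Here the genotypes did not overlap, but the log2 change of -0.52 (interval -0.95 to -0.08) did not pass over all probe sets (adjusted p = 0.383, limma). The dimmer one read 1664.7 and 823.7 in Tslc1-/- testis, against 829.3 and 967.7 in Tslc1+/+ testis. Its genotypes overlapped, the log2 change was 0.37 (adjusted p = 0.747, limma), and the higher mean in Tslc1-/- came from 1 array. No direction can be given for Prkar1b from these values.

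The catalytic subunits did not pass either. Prkaca, the alpha subunit, which also has a sperm form, read 3550 and 3881.3 in Tslc1-/- testis, against 4716.1 and 3602.9 in Tslc1+/+ testis. The genotypes overlapped, with a log2 change of -0.15 and an interval from -0.48 to 0.18 (adjusted p = 0.797, limma). Prkacb, the beta subunit, read 1485.3 and 988.8 in Tslc1-/- testis, against 1343.8 and 1069.9 in Tslc1+/+ testis. The Tslc1+/+ values lay inside the Tslc1-/- range, with a log2 change of 0.02 and an interval from -0.51 to 0.54 (adjusted p = 0.992, limma). The Prkacb interval is the wider of the 2, so a modest change in either direction cannot be told from none.

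**Figure D2:**
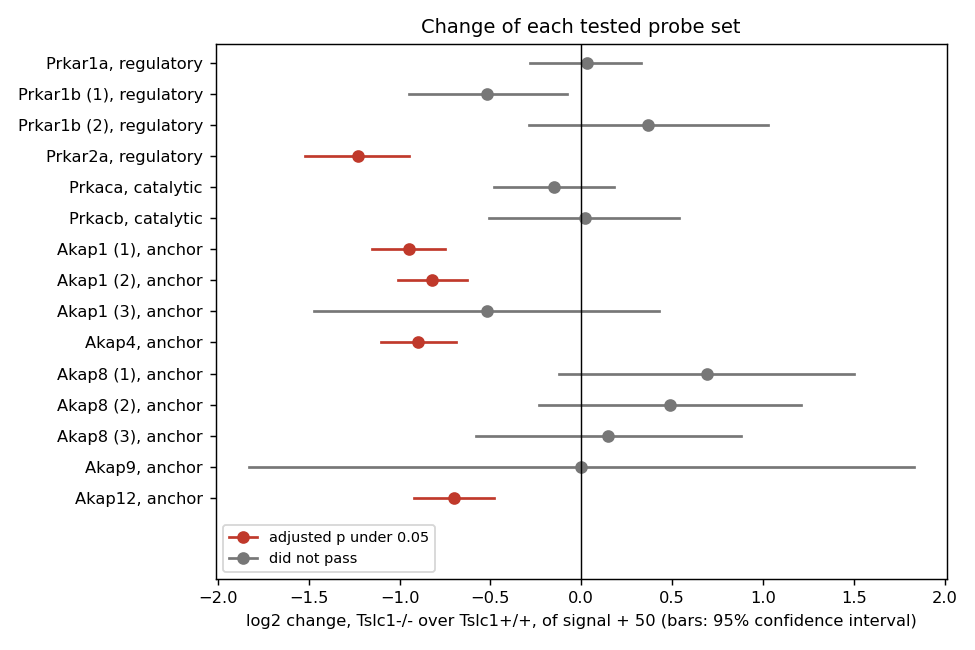
Log2 change of Tslc1-/- over Tslc1+/+ (of signal + 50) for the 15 tested probe sets, with 95% confidence intervals from limma; rows give each gene with its role. The intervals of Prkar2a, Akap4, Akap12 and the first and second Akap1 probe sets lie wholly below 0, as does that of the brighter Prkar1b probe set, which did not pass after adjustment.

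Among the anchoring proteins, Akap1, Akap4 and Akap12 fell. Akap1 encodes an anchor of the outer mitochondrial membrane, with a spermatid form known as S-AKAP84. Its brightest probe set (97368_at) read 19331.8 and 17288.4 in Tslc1-/- testis, against 33498.8 and 37351.7 in Tslc1+/+ testis, with no overlap. Mean signal was 18310 ± 1445 in Tslc1-/- testis against 35425 ± 2724 in Tslc1+/+ testis (SD, n = 2 arrays each), a 1.93-fold fall with a log2 change of -0.95 ± 0.09 (SE; adjusted p = 5.16e-04, limma). A second Akap1 probe set (97369_g_at) read 13963.9 and 14444.8 in Tslc1-/- testis, against 24261.1 and 26047.3 in Tslc1+/+ testis. Its log2 change was -0.82 (adjusted p = 8.27e-04, limma). Both were designed on the same database sequence, so they are not separate evidence, and the second carries a suffix that marks probes shared with other transcripts. The third Akap1 probe set was dim, at 208.2 and 396.2 in Tslc1-/- testis, against 440 and 433.7 in Tslc1+/+ testis. It leaned the same way without passing (log2 change -0.52, adjusted p = 0.750, limma).

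Akap4, the X-linked main scaffold of the fibrous sheath, is made in spermatids and docks PKA along the sperm tail. Its probe set (102857_at) read 8108.6 and 7964.9 in Tslc1-/- testis, against 14607.9 and 15391.6 in Tslc1+/+ testis. The arrays of each genotype were close together and far from those of the other. Mean signal was 8037 ± 102 in Tslc1-/- testis against 15000 ± 554 in Tslc1+/+ testis (SD, n = 2 arrays each), a 1.86-fold fall with a log2 change of -0.90 ± 0.09 (SE; adjusted p = 8.27e-04, limma).

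Akap12, a scaffold at the plasma membrane that also binds protein kinase C, was the smallest of the falls. It read 7922.8 and 7800.6 in Tslc1-/- testis, against 13558.3 and 12074.6 in Tslc1+/+ testis, with no overlap. Mean signal was 7862 ± 86.4 in Tslc1-/- testis against 12816 ± 1049 in Tslc1+/+ testis (SD, n = 2 arrays each), a 1.62-fold fall with a log2 change of -0.70 ± 0.10 (SE; adjusted p = 0.00716, limma). The Akap12 call did not hold without Tslc1-/- replicate 1 (adjusted p = 0.0714, limma), without Tslc1-/- replicate 2 (0.0838) or without Tslc1+/+ replicate 1 (0.107). It held without Tslc1+/+ replicate 2 (0.0388).

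The anchors of the nucleus and the centrosome did not pass. Akap8 encodes a nuclear anchor that associates with chromatin. On the brightest Akap8 probe set, which carries a cross-hybridisation suffix, the signals were 607 and 817.3 in Tslc1-/- testis, against 285 and 602.2 in Tslc1+/+ testis. Its Tslc1-/- arrays lay above its Tslc1+/+ arrays by less than the spread within either genotype, and its log2 change was 0.69 (adjusted p = 0.588, limma). The other tested Akap8 probe sets had log2 changes of 0.49 and 0.15 (adjusted p = 0.680 and 0.921, limma). On all 3, both Tslc1-/- arrays lay above both Tslc1+/+ arrays, a pattern shown by 21.5% of all tested probe sets. The Akap8 probe sets below the signal filter had mean signals of 133 and 66.0 and overlapped between genotypes. Akap9, an anchor of the centrosome and Golgi apparatus, was at the edge of the filter, with 125.9 and 242.5 in Tslc1-/- testis, against 77.3 and 356.3 in Tslc1+/+ testis. Its arrays of 1 genotype differed so much that the interval of its log2 change ran from -1.83 to 1.83.

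The falls of Prkar2a, Akap4 and the bright Akap1 probe sets passed with each array left out in turn. The highest adjusted p was 0.026 for Prkar2a, for Akap4 and for the second Akap1 probe set, and 0.0177 for the first (limma). Each such fit leaves 1 genotype with a single array, which is assumed to vary like those of the other genotype. All 5 calls needed the spread to follow signal intensity. Without that trend no PKA or AKAP probe set passed (adjusted p = 0.390 to 0.506 for these 5, limma), nor did any of the 7975, while 5 of the 15 and 638 of all had an unadjusted p under 0.05.

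**Figure D3:**
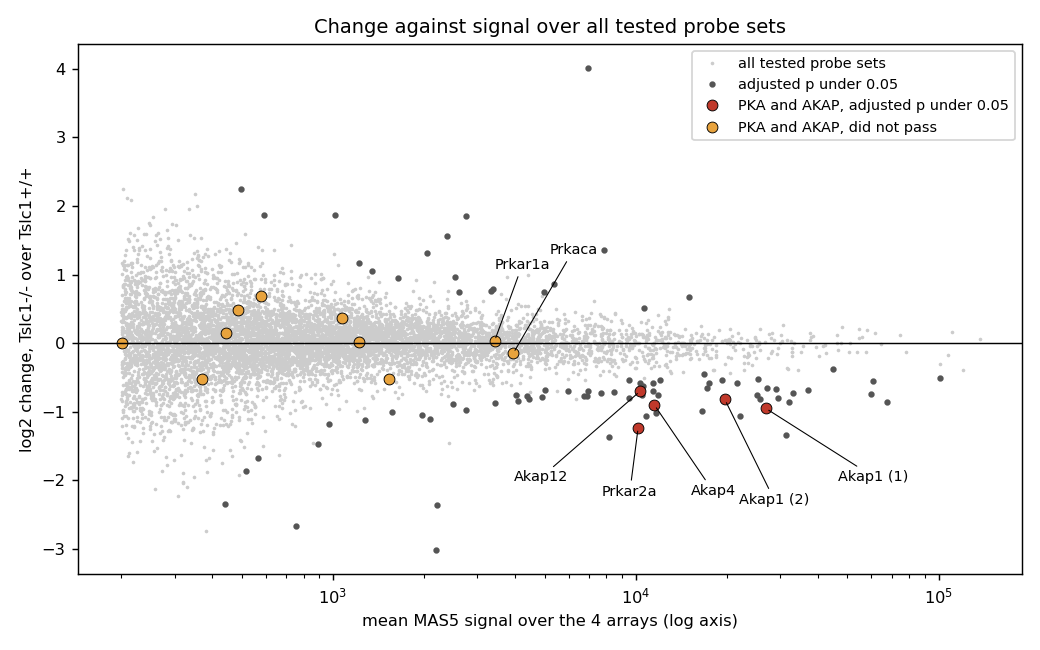
Log2 change of Tslc1-/- over Tslc1+/+ against the mean MAS5 signal (log axis) of all 7975 tested probe sets; dark points passed an adjusted p under 0.05, and coloured points are the PKA and AKAP probe sets. The 5 that passed have mean signals of 10185 or more and lie among the bright probe sets called lower, and the 10 that did not pass lie below 5000.

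Some spermatid markers were also lower. Of 12 tested elongating spermatid genes 5 were called lower and none higher, and of 10 round spermatid genes 5 were called lower and none higher. Over genes taken by their brightest probe set, 0.968% were called lower and 0.267% higher. Most of the spermatid genes had a mean signal of at least 5000, where 6.58% of tested probe sets were called lower and 0.700% higher. The summed signal of the elongating spermatid genes ranged from 418896 to 445961 in Tslc1-/- testis, against 601904 to 608366 in Tslc1+/+ testis. That of the round spermatid genes ranged from 162734 to 162881 in Tslc1-/- testis, against 227271 to 237554 in Tslc1+/+ testis. Sums are compared between genotypes for the same probe sets and weigh bright ones most. The lowest signal on any array was 469.3 among the round and 152.5 among the elongating spermatid genes, each on a Tslc1+/+ array. Only genes with a mean signal of at least 200 were counted, so a marker near 0 on every array could not appear. The median log2 change was -0.42 over the elongating and -0.41 over the round spermatid genes. The 7 elongating and 5 round spermatid genes that did not pass went both ways. Capza3 (log2 change -0.46), Tnp2 (-0.39), Smcp (-0.39), Tssk1 (-0.27) and Prm1 (-0.13) were lower with no overlap. Acrv1 (-0.14) and Crem (-0.08) leaned lower with overlap. Acr (0.15) and Haspin (0.13) were higher with no overlap, and Actl7b (0.05) and Tekt2 (0.02) overlapped. Prm2, at 0.18, was dim, with a mean signal of 276.6. It read 396.3 and 192.9 in Tslc1-/- testis, against 364.9 and 152.5 in Tslc1+/+ testis. The Prm2 genotypes overlapped, and no direction can be given for it. In whole testis, fewer cells of a type and less RNA per cell cannot be told apart.

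Other cell type lists gave few calls. The summed signals of 5 spermatocyte genes, with Pgk2 called lower, overlapped between genotypes, as did those of 6 spermatogonial, 10 Sertoli cell, 4 macrophage, 2 epididymis and 2 fat tissue genes, none of them called. Those of 8 Leydig cell genes ranged from 13256 to 14891 in Tslc1-/- testis, against 15525 to 15654 in Tslc1+/+ testis, with no gene called. The largest Leydig gap was that of Cyp17a1, at 3325 in Tslc1-/- and 4951 in Tslc1+/+ testis. On the log2 scale, Hsd3b1 at -0.56 and Cyp11a1 at -0.25 were also lower with no overlap. Hsd3b6 at 1.07 and Hsd17b3 at 0.10 were higher with no overlap. Nr5a1 at -0.05, Star at 0.42 and Insl3 at 0.77 overlapped between genotypes, and the list's median was 0.03. The summed signals of 6 peritubular myoid genes were 11839 to 12207 in Tslc1-/- testis, against 15542 to 17072 in Tslc1+/+ testis, with Actg2 called lower. Actg2, on a probe set with a cross-hybridisation suffix, made up most of that gap, at 8258 in Tslc1-/- and 12337 in Tslc1+/+ testis, while Acta2 was at 0.14 and Tagln at -0.01 on the log2 scale. Of 6 endothelial genes 3 were tested, all dim (mean signals 336 to 490). Their sums were 833 to 1014 in Tslc1-/- testis, against 1533 to 1846 in Tslc1+/+ testis, with none called. Pecam1 made up most of that gap, at 181 in Tslc1-/- and 799 in Tslc1+/+ testis. Vwf was at 0.22 on the log2 scale, and Kdr was uneven in Tslc1-/- testis, at 72 and 373.4. The sums of 2 erythrocyte genes were 2352 to 2491 in Tslc1-/- testis, against 1864 to 2173 in Tslc1+/+ testis, with none called. These genes went opposite ways, with log2 changes of 0.75 for Hba-a1 and -0.53 for Alas2. The part of any of these cell types in the PKA and AKAP changes was not tested.

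The rest of the cAMP pathway gave no calls apart from sperm tail genes listed beside Akap4. Lists by function held 85 genes besides the 10, of which 30 were tested. Of these, 3 were called lower, none was called higher and 27 did not pass, with a median log2 change of -0.06. Over all genes 0.968% were called lower and 0.267% higher. The 3 were Odf1, Tcp11 and Gapdhs. All are made in spermatids, and each also stands in one of the spermatid lists above.

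PKA inhibitors and other anchors did not pass. Pkig, a heat-stable inhibitor of the catalytic subunit, read 7760.5 and 7436.1 in Tslc1-/- testis, against 7940.2 and 7705.3 in Tslc1+/+ testis. The Pkig genotypes overlapped, and its log2 change was -0.04, with an interval from -0.26 to 0.18. Pkib, a second inhibitor, had a log2 change of -0.23 (adjusted p = 0.829, limma). Of 4 other anchoring genes the brightest, Akap8l, a nuclear relative of Akap8, had a log2 change of -0.38 (adjusted p = 0.533, limma), and the list's median was 0.48.

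Proteins that carry a docking domain like that of type II regulatory subunits differed from each other in their values. Ropn1l, which sits in the fibrous sheath, read 26598.4 and 24952.2 in Tslc1-/- testis, against 25673 and 25035 in Tslc1+/+ testis. Its log2 change was 0.02, with an interval from -0.15 to 0.20. Spa17, another sperm tail protein of this kind, read 19314.3 and 19895.3 in Tslc1-/- testis, against 24655 and 27110.5 in Tslc1+/+ testis. The Spa17 genotypes did not overlap, and its log2 change was -0.40 (adjusted p = 0.0614, limma), which did not pass over all tested probe sets. Spa17 passed where probe sets with a suffix other than _at were left out (0.0315) and with the replicate block (0.00473). It was at -0.24 (0.242) with quantile normalization and ran from -0.47 to -0.33 with 1 array left out.

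**Figure D4:**
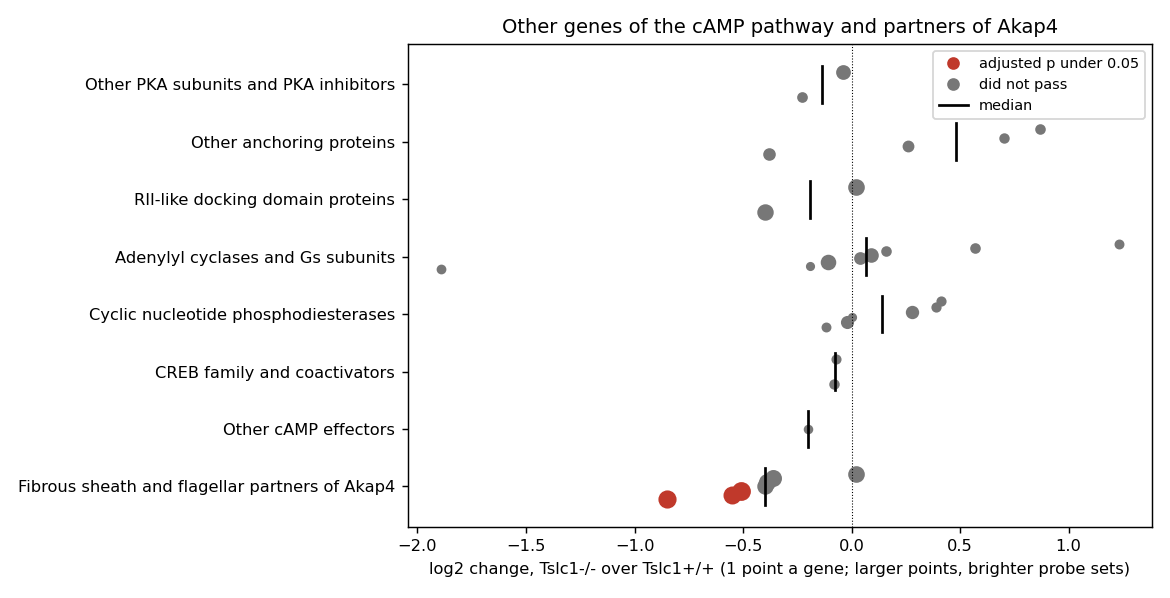
Log2 change of Tslc1-/- over Tslc1+/+ for tested genes of the other cAMP pathway lists and of the sperm tail list set beside Akap4. Each gene is 1 point by its brightest probe set, larger for brighter probe sets, and black bars are list medians. Odf1, Tcp11 and Gapdhs passed; a gene in 2 lists is drawn in both.

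Makers, breakers and targets of the cAMP signal did not pass. Of 8 adenylyl cyclase and G protein genes none was called, with a median of 0.06. Gnas, the stimulatory G protein alpha subunit, had a log2 change of -0.11 with an interval from -0.31 to 0.08. The dim cyclase gene Adcy3 read 87.4 and 129.3 in Tslc1-/- testis, against 527.2 and 533.2 in Tslc1+/+ testis. The Adcy3 genotypes did not overlap, but its log2 change of -1.89 did not pass (adjusted p = 0.179, limma). Of 6 phosphodiesterase genes none was called, with a median of 0.14. The brightest, Pde8a, which breaks down cAMP, had 3385 and 3469 in Tslc1-/- testis, against 2573 and 3072 in Tslc1+/+ testis, and a log2 change of 0.28 (adjusted p = 0.558, limma). Of the CREB family, Creb1 and Crem were tested, and Crem, the spermatid regulator, had a log2 change of -0.08 with a wide interval, from -0.76 to 0.60. The only tested gene of the other cAMP effectors, the channel gene Cnga2, had a log2 change of -0.20 (adjusted p = 0.942, limma).

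Among 7 tested sperm tail genes, 3 were called lower, none higher, and the median log2 change was -0.40. They were listed beside Akap4 as fibrous sheath and flagellar genes, and binding to Akap4 was not tested. All 7 have a mean signal of at least 5000, where 6.58% of tested probe sets were called lower. Odf1, an outer dense fibre protein, read 49566.2 and 46800.8 in Tslc1-/- testis, against 83126.4 and 90836.4 in Tslc1+/+ testis, a log2 change of -0.85 (adjusted p = 3.00e-04, limma). Tcp11, a germ cell protein linked to sperm motility, had a log2 change of -0.55 (adjusted p = 0.00231, limma). Gapdhs, the glycolytic enzyme bound to the fibrous sheath, had one of -0.51 (adjusted p = 0.00495, limma). Both Tcp11 and Gapdhs were read by probe sets with a suffix other than _at. Without Tslc1+/+ replicate 2 only Odf1 passed, with Tcp11 and Gapdhs each at an adjusted p of 0.0529, and Gapdhs also did not pass without Tslc1+/+ replicate 1 (0.107). With no signal filter Tcp11 (0.066) and Gapdhs (0.159) did not pass, and with quantile normalization Gapdhs was at -0.19 (0.134).

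The genes most like Akap4 over the 4 arrays were sought among 567 other genes with a mean signal of at least 5000, by Euclidean distance between log2 profiles centred on their means. The nearest was Odf1 at 0.071, followed by Clpb at 0.119, Akap1 at 0.124, Pgk2 at 0.140 and Pkm at 0.143. With 4 arrays such likeness reflects little more than a fall of equal size. Their log2 changes were -0.85 for Odf1, -1.01 for Clpb, -0.95 for Akap1, -0.78 for Pgk2 and -0.76 for Pkm, beside -0.90 for Akap4.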

How the data were processed

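Probe set intensity was deposited on a linear scale. Per the labels' design field, biotin-labelled cRNA was made by the authors from 3 micrograms of testis RNA by poly(T)-primed reverse transcription and in vitro transcription and hybridised to Mouse Genome U74A version 2 arrays. They computed signals with Microarray Suite 5.0 (MAS5, which the submitters' processing notes name too), with each array scaled to a target of 1000. This scaling hides changes in total RNA per testis. Detection calls were not used here.

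Arrays were grouped by genotype as titled, and all 4 value columns were used. Median signals were 377.7 and 365.15 in Tslc1-/- and 361.5 and 378 in Tslc1+/+. Precision is limited by having 2 arrays a genotype. Gene names are those of the platform annotation, updated by Entrez identifier through RefSeq GRCm38.p6 names; of 12488 probe sets, 66 were controls, 10833 named 1 gene, 396 several and 1193 none. Genes in lists stand by their brightest tested probe set.

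Genotypes were compared with limma 3.58.1 under R 4.3.3 (lmFit, then eBayes with trend) on log2(signal + 50), over 7975 probe sets with a mean signal of at least 200, two-sided, with Benjamini-Hochberg adjustment and a threshold of 0.05. The fit was also run on simulated data. Their spread was drawn from the same trended fit, so that run could not test the trend itself. Named were every PKA and AKAP probe set, Cadm1, and from each pathway list the brightest gene, the gene with the smallest p and every called gene. Of the marker lists, called genes could be named. Some uncalled ones are named to show how the genes of a list differed. Members and lists were chosen with earlier results of these data known. Alternatives changed the trend, pseudocount, filter, normalization, suffix, replicate numbers and arrays.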

Additional observations from a re-analysis of the deposited data

How the results depend on the processing

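Of the alternatives, most left the calls in place. The count of called PKA and AKAP probe sets was 5 or 4 under every alternative but 1 (without suffixed probe sets, 4 of the 5 were tested) and was 0 without the intensity trend. That setting also called 0 of all 7975 probe sets and 0 other pathway genes by limma (638 probe sets had an unadjusted p under 0.05); its smaller count comes from a spread estimate shared over bright and dim probe sets. With the replicate block 239 probe sets and 6 pathway genes were called. Same-numbered arrays did not deviate together across probe sets as a whole (r = -0.00119). This value cannot exclude a pairing that acts on some probe sets, and the labels do not say whether the numbers pair the arrays. With 1 array left out, 37 to 43 of all probe sets and 1 to 3 pathway genes were called, and with no signal filter 58 and 1. Directions changed for probe sets that did not pass. Akap9 was at 0.04 with 16 added to the signal and ran from -0.84 to 0.83 with 1 array left out. Prkacb was at -0.02 with quantile normalization and ran from -0.27 to 0.30 with 1 array left out. The other ranges with 1 array left out that crossed 0 were -0.07 to 0.12 for Prkar1a, -0.34 to 0.04 for Prkaca, -0.11 to 0.86 for the dimmer Prkar1b probe set, -0.02 to 0.07 for Ropn1l, -0.19 to 0.03 for Crem and -0.66 to 0.27 for Cnga2; the cause was not tested. Prkar2a kept its direction throughout, from -1.41 to -1.06, as did Akap4, from -0.93 to -0.85.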

Other observations

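A bright anchoring protein of the related cyclic GMP-dependent kinase gave a different reading from the called PKA anchors. Gkap1, named after its values were seen, read 16616.3 and 17545.5 in Tslc1-/- testis, against 16513.6 and 18040.6 in Tslc1+/+ testis on its brighter probe set. The Gkap1 genotypes overlapped, with a log2 change of -0.02 and a 95% confidence interval from -0.21 to 0.18. On a second, dimmer probe set Gkap1 changed by -0.33 on the log2 scale without passing (adjusted p = 0.739, limma). The difference between Gkap1 and the PKA anchors was not tested.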
